A study of Saccharomyces cerevisiae with 21 samples.

Results

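The region described here is the stretch of a no-go decay (NGD) reporter mRNA that holds the end of *GFP*, the 2A sequence and the FLAG tag. It was chosen by position alone and covers 224 of the 1586 nt listed for the reporter, from 194 nt before the proline codon of the 2A site to the last nt of FLAG. Positions are counted from the first nt of the start codon. Within the region, *GFP* ended at nt 714 (codon 238), a linker of 13 codons ran from nt 715 to 753, and the 2A sequence of 19 codons ran from nt 754 to 810. The last pair of 2A codons was a glycine codon, GGG at nt 805 to 807, and a proline codon, CCT at nt 808 to 810. A start codon at nt 811 to 813 and the 24 nt of FLAG from nt 814 followed. The reporter, *GFP-2A-FLAG-HIS3* with a tract of CGA codons at nt 1111 to 1146 (NGD-CGA), stood at *ADE2* (YOR128C, *S. cerevisiae* R64 chromosome XV, nt 564476 to 566191) behind a galactose-inducible promoter, and the tract began 274 nt after the end of the region.

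Ribosome profiling was compared in 8 haploid strains of the BY4741 background, grown on galactose and harvested by filtration and freezing. All of them lacked *SKI2* and carried the same reporter. The strains were *ski2Δ*, *dom34Δ ski2Δ*, *cue2Δ dom34Δ ski2Δ* and *hel2Δ dom34Δ ski2Δ*, and the same 4 genotypes with *SLH1* deleted as well: *slh1Δ ski2Δ*, *slh1Δ dom34Δ ski2Δ*, *cue2Δ slh1Δ dom34Δ ski2Δ* and *hel2Δ slh1Δ dom34Δ ski2Δ*. Monosome libraries were deposited as a first and a second set with 1 library per strain in each, except that *ski2Δ* was in the first set alone. In the second set the columns named for *cue2Δ slh1Δ dom34Δ ski2Δ* carry the replicate number of the first library and not that of the strain's other label. Of these only the 16 nt column, whose values differ from those of the first set, was used, as a library of the strain with no number of its own. This gave 15 libraries with 16 nt values and 14 with 21 and 28 nt values. Disome libraries were used for *dom34Δ ski2Δ* and *slh1Δ dom34Δ ski2Δ*, with 1 library each. The labels do not say whether the libraries of a strain came from separate cultures, so p-values below measure the spread between these libraries, which may be technical.

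A 2A peptide, first known from viruses, makes the ribosome skip the bond between its last glycine and the proline that follows, so that the upstream protein is released and translation goes on to a separate downstream protein. In this reporter the upstream product was GFP, and the ribosomes that went on translated FLAG and *HIS3* up to the CGA tract, where they stalled and collided. Ski2 is the helicase of the Ski complex, which feeds mRNA to the exosome. Dom34 rescues ribosomes at the ends of truncated mRNAs, Cue2 is the endonuclease of no-go decay, Slh1 is the helicase of the RQC-trigger complex that clears collided ribosomes, and Hel2 is the ubiquitin ligase that marks collided ribosomes.

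Ribosome-protected fragments (RPFs) were separated by length. The 21 nt RPFs (20 to 22 nt) come from ribosomes with an empty A site waiting for a tRNA and the 28 nt RPFs (27 to 32 nt) from ribosomes that have accommodated one but not yet translocated, and both were placed at their A sites. The 16 nt RPFs (15 to 17 nt) come from ribosomes that reached the end of a truncated mRNA and were placed at their 3′ ends. Values are mapped reads scaled to library depth (RPM, written rpm). Further stretches serve as comparisons: the stretch before the site, which is the first 164 nt of the region, and the body of *GFP*, which is the 513 nt before the region without the first 100 nt of the reading frame.

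Of the nucleotide sequence of the region, 2 stretches that bracket the 2A sequence carry patterns described below. In the linker, capitals mark the codon of the region with the most 16 nt RPFs in *slh1Δ dom34Δ ski2Δ*. In the stretch from the start codon to the end of FLAG, capitals mark the last 15 nt, from nt 823, where 28 nt RPFs were few. Both are written 5′ to 3′ as in the deposited reporter tables.
Linker, nt 715 to 753: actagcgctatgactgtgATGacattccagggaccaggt
Start codon and FLAG, 27 nt from nt 811: atggactacaagGACGACGACGACAAG

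The 15 monosome libraries held 1261876 to 15416759 mapped reads, so that 3 reads, the limit that a count of 0 allows, stood for 0.195 to 2.38 rpm. Over the region they gave 37 to 1888 reads of 16 nt RPFs, 285 to 4800 of 21 nt RPFs and 1191 to 17768 of 28 nt RPFs. The shallowest libraries were those of the first set for *cue2Δ slh1Δ dom34Δ ski2Δ* (1261876 reads) and *hel2Δ slh1Δ dom34Δ ski2Δ* (3179018 reads), and both also stood apart in where their A sites fell. In the body of *GFP*, 29.6% to 31% of their 28 nt A sites lay on the third nt of a codon, against 13.8% to 18.2% in the other 12 libraries. Tests of single stretches and sums were repeated without them, and values that moved are given below or among the processing alternatives. The fit by codon of 21 and 28 nt RPFs was not repeated without both.

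The site at which the 2A peptide skips the glycyl-prolyl bond was the most occupied position of the region in 21 nt RPFs. Position 809, in the proline codon, held the highest 21 nt value in 13 of 14 libraries, and in the remaining one, the shallow *hel2Δ slh1Δ dom34Δ ski2Δ* library, positions 633 and 809 held 49 reads each, or 15.4 rpm. There were 48.2 rpm at position 809 in *ski2Δ*, 29.7 and 30.6 rpm in *dom34Δ ski2Δ*, 25.3 and 67.5 rpm in *cue2Δ dom34Δ ski2Δ*, and 11.8 and 11.7 rpm in *hel2Δ dom34Δ ski2Δ*. Among strains without *SLH1* there were 26.1 and 41.5 rpm in *slh1Δ ski2Δ*, 12.3 and 15.5 rpm in *slh1Δ dom34Δ ski2Δ*, 16.6 rpm in *cue2Δ slh1Δ dom34Δ ski2Δ*, and 15.4 and 33.6 rpm in *hel2Δ slh1Δ dom34Δ ski2Δ*. The levels were lowest in *hel2Δ dom34Δ ski2Δ* and *slh1Δ dom34Δ ski2Δ* and highest in 1 library of *cue2Δ dom34Δ ski2Δ*, whose libraries differed from each other by more than most strains did. The glycine codon came next, with 3.77 to 22.4 rpm (median 9.01) at position 807. Position 803, in the CCC codon before the glycine codon, held 3.17 to 17.1 rpm (median 6.37).

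**Figure D1:**
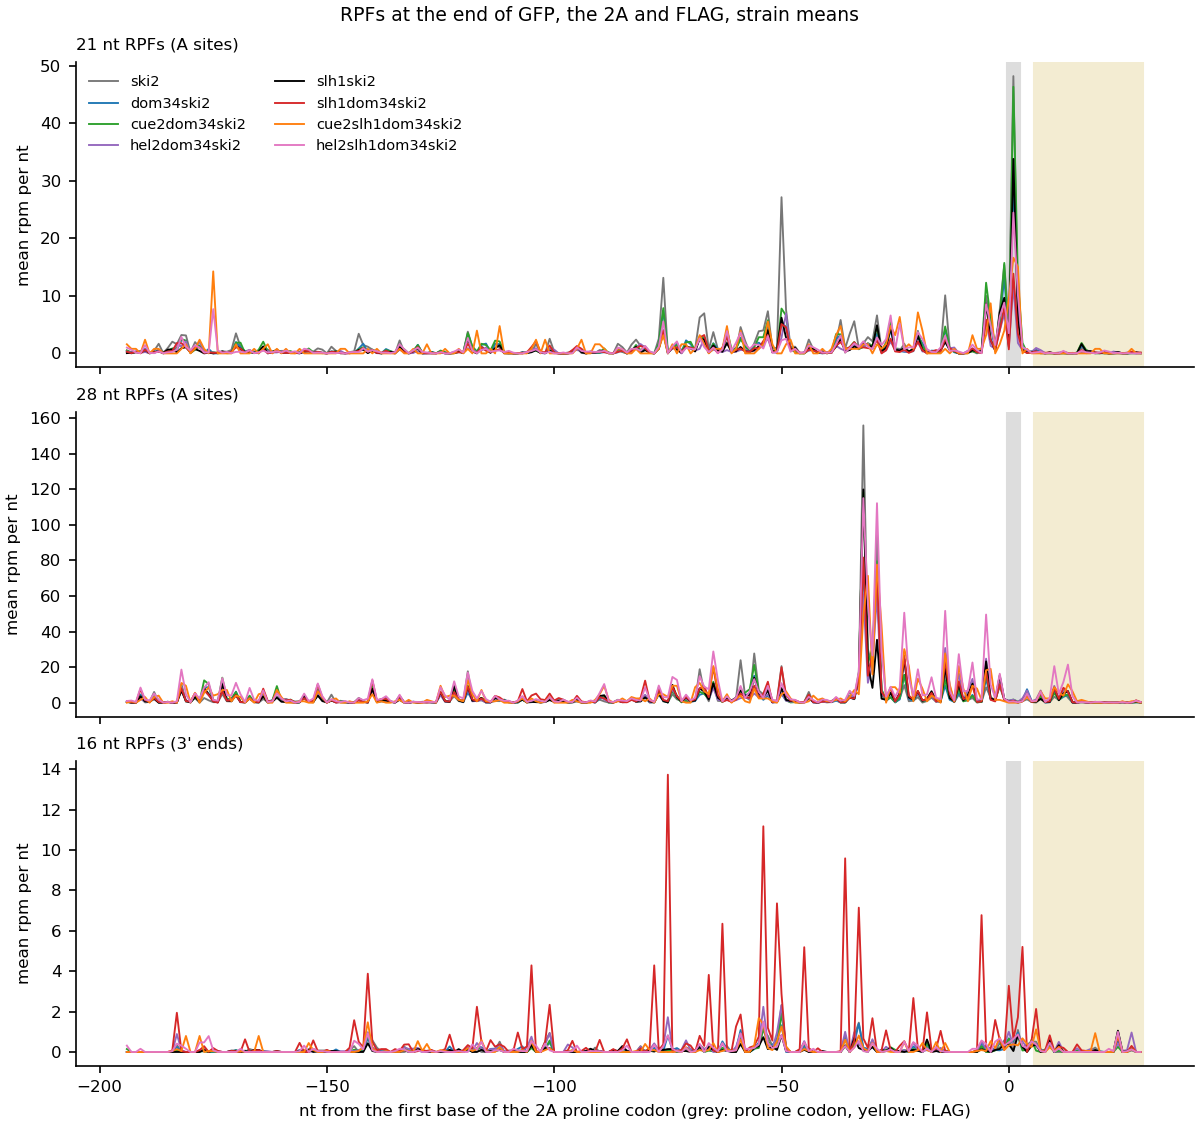
Mean occupancy (rpm, vertical axes) by distance from the first nt of the 2A proline codon (nt, horizontal axis) for 21 and 28 nt RPFs at A sites and 16 nt RPFs at 3′ ends, by strain. The 21 nt peak stands at the proline codon of the 2A site, the tallest 28 nt peaks stand 32 and 29 nt before it, and 16 nt RPFs are high from the linker through the 2A sequence in slh1dom34ski2.

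The gain at the site was measured as the log2 ratio of rpm per nt at the glycine and proline codons (nt 805 to 810) to rpm per nt in the stretch before, with 0.1 rpm per nt added to each. For 21 nt RPFs this ratio was 3.42 ± 0.46 (SD, n = 14), positive in 14 of 14 libraries, with single ratios of 2.80 to 4.31, which stand for 6.95-fold to 19.8-fold (median 10.5-fold). An exact two-sided sign-flip permutation test over the 14 libraries gave p = 0.000122, the smallest value it can reach. By strain the mean ratio ran from 2.88 ± 0.12 (SD, n = 2) in *hel2Δ dom34Δ ski2Δ* and 2.91 ± 0.15 (n = 2) in *slh1Δ dom34Δ ski2Δ* to 3.77 ± 0.58 (n = 2) in *cue2Δ dom34Δ ski2Δ* and 3.96 ± 0.50 (n = 2) in *slh1Δ ski2Δ*. With 2 libraries against 2 an exact permutation test cannot go below p = 0.33, so neighbours in this order could not be told apart.

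For 28 nt RPFs the log2 ratio at the site was -0.15 ± 0.73 (SD, n = 14), positive in 4 of 14 libraries (exact sign-flip p = 0.506). It depended on the baseline, since the stretch before holds the 28 nt peak at position 776. It was 0.27 against the region up to nt 770 and 0.53 against the body of *GFP* (exact sign-flip p = 0.0103). Both codons differed in this size class. At the glycine codon 28 nt RPFs summed to 3.96 to 27.9 rpm (median 14.2), with 1.58 to 21.9 rpm (median 11.2) at position 806, and at the proline codon to 0 to 4.11 rpm (median 1.85), 0 to 0.774% of the 28 nt RPFs of the region. With the proline codon taken alone as the site, the log2 ratio of 28 nt RPFs was -2.16 (exact sign-flip p = 0.000122).

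At the site itself the shorter of both A-site classes was the more frequent one. Of the 21 and 28 nt RPFs together, 21 nt RPFs were 76.9% to 100% (median 95.2%) at the proline codon and 34.7% to 66.0% (median 53.1%) at the glycine codon. They were 11.2% to 27.7% (median 18.9%) in the stretch before and 21.2% to 36.3% (median 29%) in the body of *GFP*. The share at the site exceeded that in the stretch before by 55.1 ± 9.68 percentage points (SD, n = 14), and it was higher in 14 of 14 libraries (exact sign-flip p = 0.000122, the smallest possible). By strain the excess was lowest in *hel2Δ dom34Δ ski2Δ*, at 38.7 ± 13.4 points (SD, n = 2), and 51.9 to 72.7 points in all others.

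**Figure D2:**
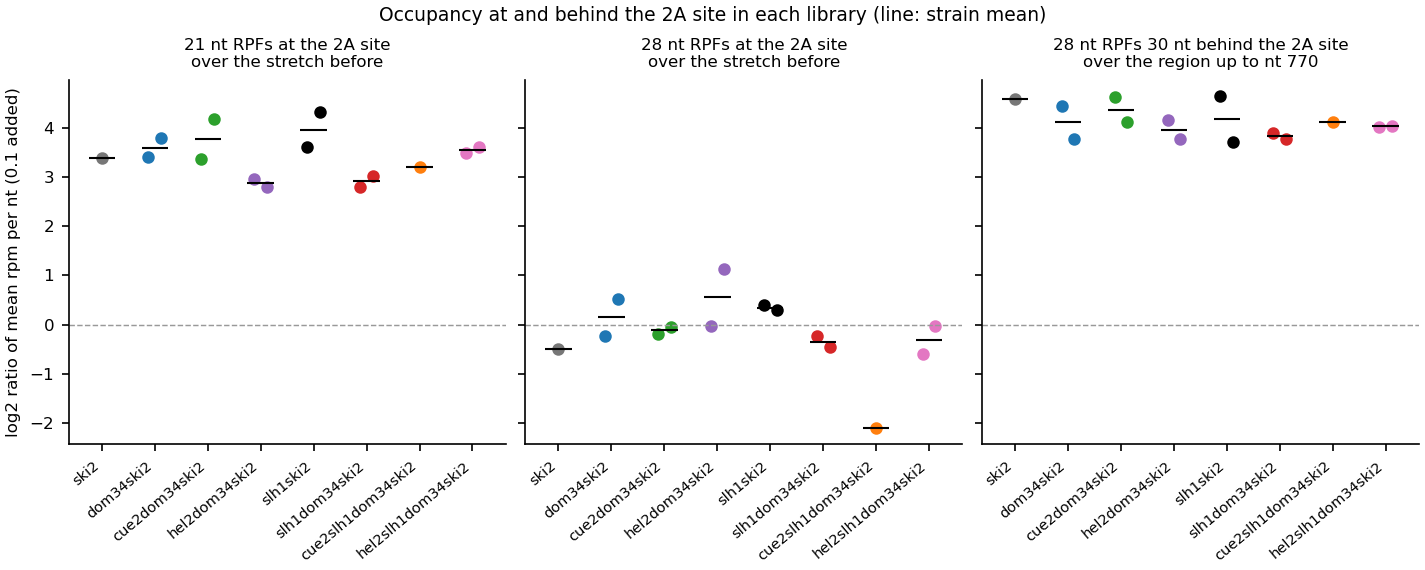
Log2 ratio of rpm per nt at the 2A site (nt 805 to 810) to the stretch before (vertical axes, 0.1 rpm per nt added), by strain (horizontal axes), for 21 nt and 28 nt RPFs, and the same ratio of 28 nt RPFs in nt 775 to 780 to the region up to nt 770. Each point is a library and the line is the strain mean. All 14 libraries lie above 0 for 21 nt RPFs at the site, between 2.80 and 4.31, whereas 28 nt RPFs at the site lie on both sides of 0.

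The most occupied stretch of the region in 28 nt RPFs lay about 1 ribosome length, 30 nt, before the site. Position 776 was highest in 10 of 14 libraries and position 779 in the other 4, with 42.0 to 160 rpm (median 97.7) and 10.8 to 130 rpm (median 76.9). Both are second nt of codons, AAA and CAA. The 28 nt RPFs of nt 775 to 780 summed to 318 rpm in *ski2Δ*, 264 and 158 rpm in *dom34Δ ski2Δ*, 284 and 266 rpm in *cue2Δ dom34Δ ski2Δ*, and 230 and 109 rpm in *hel2Δ dom34Δ ski2Δ*. Without *SLH1* they summed to 212 and 191 rpm in *slh1Δ ski2Δ*, 199 and 234 rpm in *slh1Δ dom34Δ ski2Δ*, 262 rpm in *cue2Δ slh1Δ dom34Δ ski2Δ*, and 331 and 379 rpm in *hel2Δ slh1Δ dom34Δ ski2Δ*. Both libraries of *hel2Δ slh1Δ dom34Δ ski2Δ* lay above all others, and the other strains overlapped. In each library these 6 nt held 20.6% to 41.7% (median 27.9%) of the 28 nt RPFs of all 224 nt. Per nt they exceeded the region up to nt 770 by 4.12 ± 0.33 on the log2 scale (SD, n = 14), which is 13.1-fold to 24.9-fold, in 14 of 14 libraries (exact sign-flip p = 0.000122). This stretch was chosen after its values were seen, so the p describes how alike the libraries were and is no independent test.

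At these 6 nt the lengths stood the other way round from the site itself. Only 1.96% to 5.09% (median 3.46%) of the 21 and 28 nt RPFs there were 21 nt RPFs. Between the peaks of both lengths, 28 nt RPFs at position 785 (GGA) held 9.88 to 71.0 rpm (median 22.4) and at position 794 (GAG) 7.26 to 62.4 rpm (median 22.7), which made all 4 of these positions second nt of codons. In both shallow libraries more of the 28 nt A sites lay 1 nt later, with position 777 at 1.13 and 1.45 times position 776, against 0.124 to 0.214 times in the other 12.

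Occupancy after the site was lower than in the stretch before it. Per nt, the 21 and 28 nt RPFs of the start codon and FLAG stood -1.05 ± 0.52 from those of the stretch before on the log2 scale (SD, n = 14), lower in 14 of 14 libraries, at 0.212 to 0.903 times (median 0.520 times; exact sign-flip p = 0.000122). The mean was lowest in *ski2Δ*, at -2.24 (n = 1), and closest to 0 in *hel2Δ dom34Δ ski2Δ*, at -0.34 ± 0.28 (SD, n = 2). This comparison rests on where the stretches end. With the later stretch ending at nt 822 the log2 ratio was -0.11 (exact sign-flip p = 0.473), and with it carried on to nt 900 the ratio was 0.46 (p = 0.0603 in the same exact test).

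The 28 nt RPFs after the site were lowest at the end of FLAG. In nt 811 to 822, the start codon and the first codons of FLAG, 28 nt RPFs summed to 19.5 to 93.6 rpm, whereas in the last 15 nt of FLAG, in capitals above, they summed to 0.581 to 5.55 rpm (median 3.04), 0.0762% to 0.879% of the region. The 21 nt RPFs showed no such drop, with 0.0660 to 0.297 rpm per nt (median 0.183) in nt 811 to 822 and 0.0605 to 0.341 rpm per nt (median 0.159) in the last 15 nt. The 16 nt RPFs of the last 15 nt summed to 0.293 to 2.67 rpm. Beyond FLAG, in nt 838 to 900 of *HIS3*, 28 nt RPFs stood at 2.14 to 17.1 rpm per nt. Reads were deposited only where they mapped to a single place, so other copies of these sequences were looked for. No window of 21 or 28 nt over the region's 224 positions had another exact copy in the R64 genome or the reporter, also with 1 end base less. Of 16 nt windows 5 had one, and 22 with 1 end base less, of which 7 lay in the last 15 nt of FLAG. Reads that aligned to ribosomal or non-coding RNA had been set aside before mapping, and loss of reads at that step was not tested.

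Loss of *SLH1* was tested within each of the 4 backgrounds that shared the other deletions. An exact permutation test stratified by background asked whether libraries without *SLH1* differed, and 1 in 324 arrangements, p = 0.00309, is its smallest value. At the 2A site itself the 21 nt ratio changed by -0.01 on the log2 scale (p = 0.978 in the exact test), as the mean of +0.58 in *ski2Δ*, -0.69 in *dom34Δ ski2Δ*, -0.58 in *cue2Δ dom34Δ ski2Δ* and +0.66 in *hel2Δ dom34Δ ski2Δ*. Without the shallow libraries it was 0.20. The 28 nt ratio changed by -0.62 (exact p = 0.173), and by -1.46 (exact p = 0.0309) with the proline codon alone as the site. The -0.62 was the mean of +0.84 in *ski2Δ*, -0.50 in *dom34Δ ski2Δ*, -1.98 in *cue2Δ dom34Δ ski2Δ* and -0.86 in *hel2Δ dom34Δ ski2Δ*. The -1.98 rests on the shallow *cue2Δ slh1Δ dom34Δ ski2Δ* library, with 5 reads of 28 nt RPFs at the site and 0 at the proline codon. As a sum, 28 nt RPFs at the site changed by -0.31 (exact p = 0.519), and by 0.33 without the shallow libraries (exact p = 0.222). The ratio of after to before changed by 0.37 (exact p = 0.148), but by 0.98 (exact p = 0.00309) with the body of *GFP* as the baseline and by 1.17 (exact p = 0.0123) with the later stretch carried on to nt 900. Summed over the region, 21 and 28 nt RPFs changed by 0.25 (exact p = 0.213).

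The 28 nt RPFs just after the site were higher without *SLH1* in each background. From the start codon to the end of FLAG they summed to 20.1 rpm in *ski2Δ* against 29.4 and 39.1 rpm in *slh1Δ ski2Δ*, and to 29.5 and 36.4 rpm in *dom34Δ ski2Δ* against 44.6 and 38.3 rpm in *slh1Δ dom34Δ ski2Δ*. They summed to 30.4 and 31.5 rpm in *cue2Δ dom34Δ ski2Δ* against 57.1 rpm in *cue2Δ slh1Δ dom34Δ ski2Δ*, and to 54.8 and 42.3 rpm in *hel2Δ dom34Δ ski2Δ* against 67.3 and 98.7 rpm in *hel2Δ slh1Δ dom34Δ ski2Δ*. Every library without *SLH1* was above those of its own background with *SLH1*. The mean change was +0.67 on the log2 scale (+0.73, +0.32, +0.86 and +0.75 by background; exact p = 0.00309, the smallest possible). After Benjamini-Hochberg adjustment p was 0.0278 over the 9 stretches tested for 28 nt RPFs and 0.0556 over the 36 combinations of stretch and length. Without the shallow libraries, which leaves 3 backgrounds, the change was 0.69 (exact p = 0.0185). The 21 nt RPFs of the same stretch, which were far fewer, changed by -0.24 (exact p = 0.407), with +0.28 in *ski2Δ* and -0.23 to -0.57 in the other backgrounds.

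Inside the 2A sequence, 28 nt RPFs of nt 778 to 804 changed by +0.52 with loss of *SLH1* (exact p = 0.0123, adjusted over the 9 stretches 0.037 and over the 36 combinations 0.0889), with -0.05 in *ski2Δ* and 0.40 to 0.94 in the other backgrounds, and by 0.51 without the shallow libraries (exact p = 0.0741). *HIS3* from nt 838 to the tract changed by +0.99 (exact p = 0.00617), and the body of *GFP* by -0.41 (exact p = 0.142). Without the shallow libraries these were 1.21 (exact p = 0.0185) and -0.16 (exact p = 0.648). These stretches were drawn with values of the region known. Taken relative to the part of *GFP* before the region in the same library, in place of all mapped reads, the 21 and 28 nt RPFs of the region were higher by 0.69 without *SLH1* (exact p = 0.00309).

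**Figure D3:**
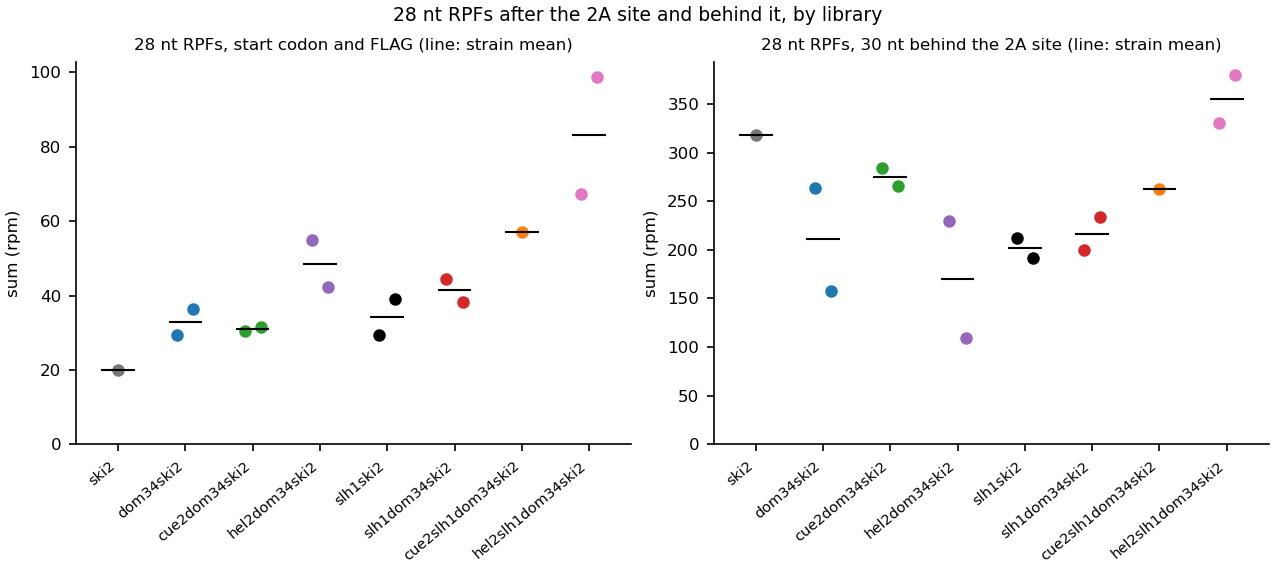
Sum of 28 nt RPFs (rpm, vertical axes from 0) in the start codon and FLAG and in nt 775 to 780, 30 nt behind the 2A site, by strain (horizontal axes). Each point is a library and the line is the strain mean. In the start codon and FLAG the libraries without SLH1 stand above those with it in each background, between 29.4 and 98.7 rpm against 20.1 to 54.8 rpm. In nt 775 to 780 they stand above those with it in the hel2dom34ski2 background, below in ski2 and cue2dom34ski2, and overlap in dom34ski2.

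By codon, 21 and 28 nt RPFs were summed and fitted with limma over 480 windows of 3 nt along the reporter. Loss of *SLH1* passed an adjusted p of 0.05 in 21 of the region's 74 codon windows (73 of them tested), of which 17 were higher and 4 lower. Over all windows tested, 54.4% passed, 40.6% higher and 13.8% lower, so that the share in the region was below the share along the reporter. The median log2 change was 0.24 in the region and 0.25 over all windows tested. The windows that passed were higher in the linker (3 of 3), in the 2A sequence (7 of 7) and from the start codon to the end of FLAG (4 of 4), and mixed at the end of *GFP* (3 of 7 higher). Taken relative to the part of *GFP* before the region, 44 windows passed.

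Of the 5 windows with the greatest size of change, 3 lay in the 2A sequence, 1 in *GFP* and 1 at the end of FLAG. TCC at nt 766 to 768, early in the 2A sequence, changed by 1.43 on the log2 scale. It held 0.945 rpm in *ski2Δ* and 0.843 to 2.20 rpm in the other strains with *SLH1*, against 1.74 to 5.55 rpm in those without. These ranges overlapped across backgrounds and also within 1 of them, with 0.909 and 1.87 rpm in *dom34Δ ski2Δ* against 1.74 and 2.17 rpm in *slh1Δ dom34Δ ski2Δ*. The 5.55 rpm was in the shallow *cue2Δ slh1Δ dom34Δ ski2Δ* library. AAG at nt 835, the last codon of FLAG, changed by 1.28, from 0.363 to 2.33 rpm with *SLH1* to 1.13 to 2.93 rpm without. In the *hel2Δ dom34Δ ski2Δ* background its mean was 1.76 rpm with *SLH1* and 1.61 rpm without. The 2.38 rpm of the shallow *cue2Δ slh1Δ dom34Δ ski2Δ* library stood for 3 reads. AAT at nt 799 to 801 changed by 1.25 and GGA at nt 784 to 786 by 1.17, both in the 2A sequence. GAG at nt 664 to 666 of *GFP* changed by -1.57, from 2.0 to 9.23 rpm with *SLH1* to 0 to 5.79 rpm without, where the 0 was in the shallow *cue2Δ slh1Δ dom34Δ ski2Δ* library and allows up to 2.38 rpm. This value rests on that 0, and in the *hel2Δ dom34Δ ski2Δ* background the mean was higher without *SLH1*, at 5.41 against 2.85 rpm.

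The 16 nt RPFs of the region set *slh1Δ dom34Δ ski2Δ* apart from every other strain. They summed to 149.4 and 149.0 rpm in *slh1Δ dom34Δ ski2Δ*. In the strains with *SLH1* there were 28.4 rpm in *ski2Δ*, 24.2 and 25.3 rpm in *dom34Δ ski2Δ*, 26.3 and 15.1 rpm in *cue2Δ dom34Δ ski2Δ*, and 34.8 and 38.9 rpm in *hel2Δ dom34Δ ski2Δ*. In the others without it there were 23.6 and 10.2 rpm in *slh1Δ ski2Δ*, 29.3 and 29.7 rpm in *cue2Δ slh1Δ dom34Δ ski2Δ*, and 34.6 and 28.6 rpm in *hel2Δ slh1Δ dom34Δ ski2Δ*. The 13 libraries of these 7 strains lay between 10.2 and 38.9 rpm, and no library of them came near the pair of *slh1Δ dom34Δ ski2Δ*.

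On the log2 scale of rpm + 1, loss of *SLH1* changed the sum by +2.54 in *dom34Δ ski2Δ* (5.84-fold), by +0.54 in *cue2Δ dom34Δ ski2Δ*, by -0.83 in *ski2Δ* and by -0.22 in *hel2Δ dom34Δ ski2Δ*. The mean over the 4 backgrounds, 0.51, gave p = 0.221 in the stratified exact test. Loss of *DOM34* changed the sum by -0.19 in *ski2Δ* and by +3.18, or 9.05-fold, in *slh1Δ ski2Δ*. Loss of *CUE2* changed it by -0.30 in *dom34Δ ski2Δ* and by -2.30 in *slh1Δ dom34Δ ski2Δ*. In the latter the difference was -2.31 between libraries of the first set and -2.29 between those of the second. The first rests on 37 reads in the shallow *cue2Δ slh1Δ dom34Δ ski2Δ* library, the second on the library with no number of its own. Loss of *HEL2* changed the sum by +0.55 in *dom34Δ ski2Δ* and by -2.21 in *slh1Δ dom34Δ ski2Δ*. Averaged over both backgrounds, loss of *DOM34* gave 1.49 (exact p = 0.33), loss of *CUE2* -1.30 (exact p = 0.167) and loss of *HEL2* -0.83 (exact p = 0.33). For each of these tests 0.0556 is the smallest p.

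**Figure D4:**
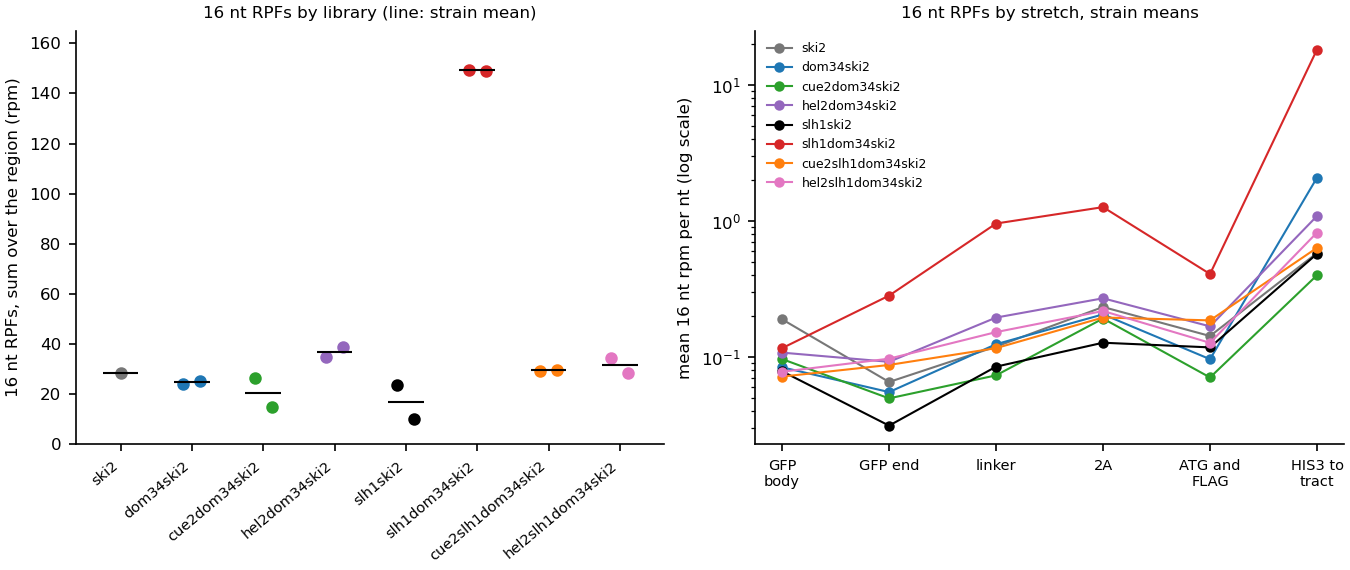
Sum of 16 nt RPFs over the region (rpm, vertical axis from 0) by strain, each point a library and each line a strain mean, and strain means of 16 nt rpm per nt by stretch of the reporter (vertical axis on a log scale). Both libraries of slh1dom34ski2 stand near 149 rpm, the other 13 between 10.2 and 38.9 rpm.

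In *slh1Δ dom34Δ ski2Δ* the 16 nt ends were densest in the linker and the 2A sequence. Per nt there were 0.113 and 0.119 rpm in the body of *GFP*, 0.270 and 0.296 rpm at the end of *GFP* inside the region, 0.875 and 1.04 rpm in the linker, and 1.36 and 1.18 rpm in the 2A sequence. The density then fell to 0.396 and 0.420 rpm per nt from the start codon to the end of FLAG, and was 0.420 and 0.545 rpm per nt in nt 838 to 900. These levels were low beside *HIS3* from nt 838 to the tract as a whole, with 18.0 and 18.6 rpm per nt. In the other 13 libraries the 2A sequence held 0.0847 to 0.273 rpm per nt.

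The highest 16 nt positions of *slh1Δ dom34Δ ski2Δ* were position 733 (13.5 and 13.9 rpm), 754 (11 and 11.3 rpm), 772 (10.9 and 8.25 rpm), 757 (7.60 and 7.12 rpm) and 775 (9.34 and 4.95 rpm). All 5 were the first nt of a codon. Of the 16 nt ends in the region, 81.9% (95% Wilson interval 80.1% to 83.6%) and 83.0% (81.0% to 84.8%) were on the first nt of a codon in the 2 libraries, against 37.8% to 55.7% (median 44.2%) in the other 13. In *dom34Δ ski2Δ* the highest positions were 775 (1.16 and 1.65 rpm), 758 (1.32 and 1.32 rpm), 754 (1.57 and 0.770 rpm), 749 (1.07 and 1.10 rpm) and 810 (1.16 and 0.770 rpm), so that 2 of 5 positions, 40% of each list, were shared. These intervals and limits cover counting error only.

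The linker codon ATG at nt 733 to 735, in capitals above, held the most 16 nt RPFs of any codon of the region in *slh1Δ dom34Δ ski2Δ*, 13.6 and 13.9 rpm. It held 0.578 and 1.65 rpm in *dom34Δ ski2Δ*, 0.470 and 0.215 rpm in *slh1Δ ski2Δ*, 0.944 and 1.11 rpm in *hel2Δ slh1Δ dom34Δ ski2Δ*, and 0 and 0.0936 rpm in *cue2Δ slh1Δ dom34Δ ski2Δ*. Among the other 13 libraries its highest value was 2.56 rpm, in *hel2Δ dom34Δ ski2Δ*. The codon was named for its high value in *slh1Δ dom34Δ ski2Δ*, so its changes against that strain describe it and are no independent test. In the limma fit it changed by +5.03 between *slh1Δ ski2Δ* and *slh1Δ dom34Δ ski2Δ* (adjusted p = 0.000124) and by +3.67 between *dom34Δ ski2Δ* and *slh1Δ dom34Δ ski2Δ* (adjusted p = 0.00291). Against *slh1Δ dom34Δ ski2Δ* it changed by -6.64 with loss of *CUE2* (adjusted p = 1.01e-05) and by -3.63 with loss of *HEL2* (adjusted p = 0.00264). The size of -6.64 rests on values at the floor and on the 0.1 rpm added. The 0 of the shallow *cue2Δ slh1Δ dom34Δ ski2Δ* library allows up to 2.38 rpm, and the 0.0936 rpm of the other is 1 read.

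Over the 74 codon windows of the region, 27 passed the filter on low values, 6 at the end of *GFP*, 6 in the linker, 11 in the 2A sequence and 4 after it. A window could pass that filter, a mean over all libraries, through *slh1Δ dom34Δ ski2Δ* alone, so the counts against this strain are a description and no support. Between *dom34Δ ski2Δ* and *slh1Δ dom34Δ ski2Δ*, 17 windows rose and none fell (limma, adjusted p under 0.05), 8 of them in the 2A sequence and 4 in the linker, while 52.3% of the 130 windows tested along the reporter rose. Between *slh1Δ ski2Δ* and *slh1Δ dom34Δ ski2Δ*, 20 windows rose, against 64.6% along the reporter. Loss of *CUE2* in *slh1Δ dom34Δ ski2Δ* lowered 16 windows and raised none, against 54.6% called along the reporter (53.8% lower and 0.769% higher), and loss of *HEL2* lowered 12, against 45.4%. Median log2 changes of the windows in the region were 2.45, 3.41, -2.77 and -2.36 in these comparisons. Over all windows tested, which include those of the region, they were 2.45, 3.39, -2.65 and -2.18. In the same order, log2 sums of 16 nt RPFs changed by 2.54, 3.18, -2.30 and -2.21 over the region. They changed by 0.48, 0.75, -0.77 and -0.58 in the body of *GFP*. In *HIS3* up to the tract they changed by 3.13, 5.21, -4.84 and -4.47. By sums, the region thus moved more than the body of *GFP* and less than *HIS3*. The comparisons share the libraries of *slh1Δ dom34Δ ski2Δ*, and 11 windows passed in all 4.

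Where *SLH1* was present the same windows gave no calls. Between *ski2Δ* and *dom34Δ ski2Δ* limma called 0 windows of the region (1 at an unadjusted p under 0.05), with 6.15% called along the reporter. Loss of *CUE2* in *dom34Δ ski2Δ* gave 0 windows (1 unadjusted; 6.92% along the reporter) and loss of *HEL2* gave 0 (1 unadjusted; 1.54% along the reporter). The edgeR quasi-likelihood test also called 0 in each. The libraries of these strains held 103 to 471 reads of 16 nt RPFs over the region, which limits what could be detected at single codons.

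At the 2A site itself the 16 nt density was 0.132 to 1.46 rpm per nt (median 0.517), against 0.0847 to 1.36 (median 0.221) in the whole 2A sequence and 0.0455 to 0.667 (median 0.128) in the region. The glycine and proline codons held 0.792 to 8.76 rpm in sum over the 15 libraries (median 3.10), of which 0 to 6.91 rpm (median 2.09) fell in the proline codon. Position 808, the first nt of the proline codon, held at most 4.02 rpm and position 810 at most 2.17 rpm. The 6 nt that lie 30 nt before the site, where 28 nt RPFs were highest, held 0.429 to 12.4 rpm of 16 nt ends (median 1.58).

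Disomes, the paired footprints of adjoining ribosomes, were read for 1 library of each of 2 strains (*dom34Δ ski2Δ* with 279879 mapped reads, *slh1Δ dom34Δ ski2Δ* with 457397), so no test between strains was possible. The 54 nt (51 to 54 nt) and 60 nt (57 to 62 nt) classes were placed at the A site of the leading ribosome. Together they gave 847 reads in the region for the first strain and 1920 for the second. Of these, 18.4% (95% Wilson interval 16% to 21.2%) and 17.1% (15.5% to 18.9%) had the leading ribosome at the 2A site. In nt 775 to 780, where 28 nt RPFs were highest, there were 28.6% (25.6% to 31.7%) and 10.1% (8.79% to 11.5%), intervals that do not overlap but cover counting error only. The 60 nt class was highest at position 780 in both, with 136 of 697 reads (19.5%, 16.7% to 22.6%) and 138 of 1503 reads (9.18%, 7.82% to 10.7%). The 54 nt class was highest at positions 807 (26 of 150 reads) and 808 (45 of 417 reads), at the glycine and proline codons.

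The 46 nt disomes (44 to 48 nt), in which the leading ribosome sits at a truncated end and which were placed at their 3′ ends, had their highest position at nt 793 in both libraries, 15 nt before the proline codon. It held 20 of 122 reads in *dom34Δ ski2Δ* (16.4%, 10.9% to 24%) and 180 of 879 reads in *slh1Δ dom34Δ ski2Δ* (20.5%, 17.9% to 23.3%). The next positions were 790 (9 reads) and 796 (8 reads) in *dom34Δ ski2Δ*, and 787 (71 reads) and 730 (52 reads) in *slh1Δ dom34Δ ski2Δ*. All 5 of these positions were the first nt of a codon. The 16 nt monosomes did not share the peak at nt 793: position 793 held 0 rpm in both libraries of *dom34Δ ski2Δ*, and 1.27 and 0.825 rpm in those of *slh1Δ dom34Δ ski2Δ*. At the other positions named for *slh1Δ dom34Δ ski2Δ*, its 16 nt ends were 4.04 and 4.54 rpm at 730 and 3.48 and 1.86 rpm at 787. At those named for *dom34Δ ski2Δ*, its 16 nt ends were 0.165 and 0.550 rpm at 790 and 0 rpm in both libraries at 796. The region took 5.22% of the reporter's 46 nt disomes in *dom34Δ ski2Δ*, against 4.60% for *slh1Δ dom34Δ ski2Δ*.

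**Figure D5:**
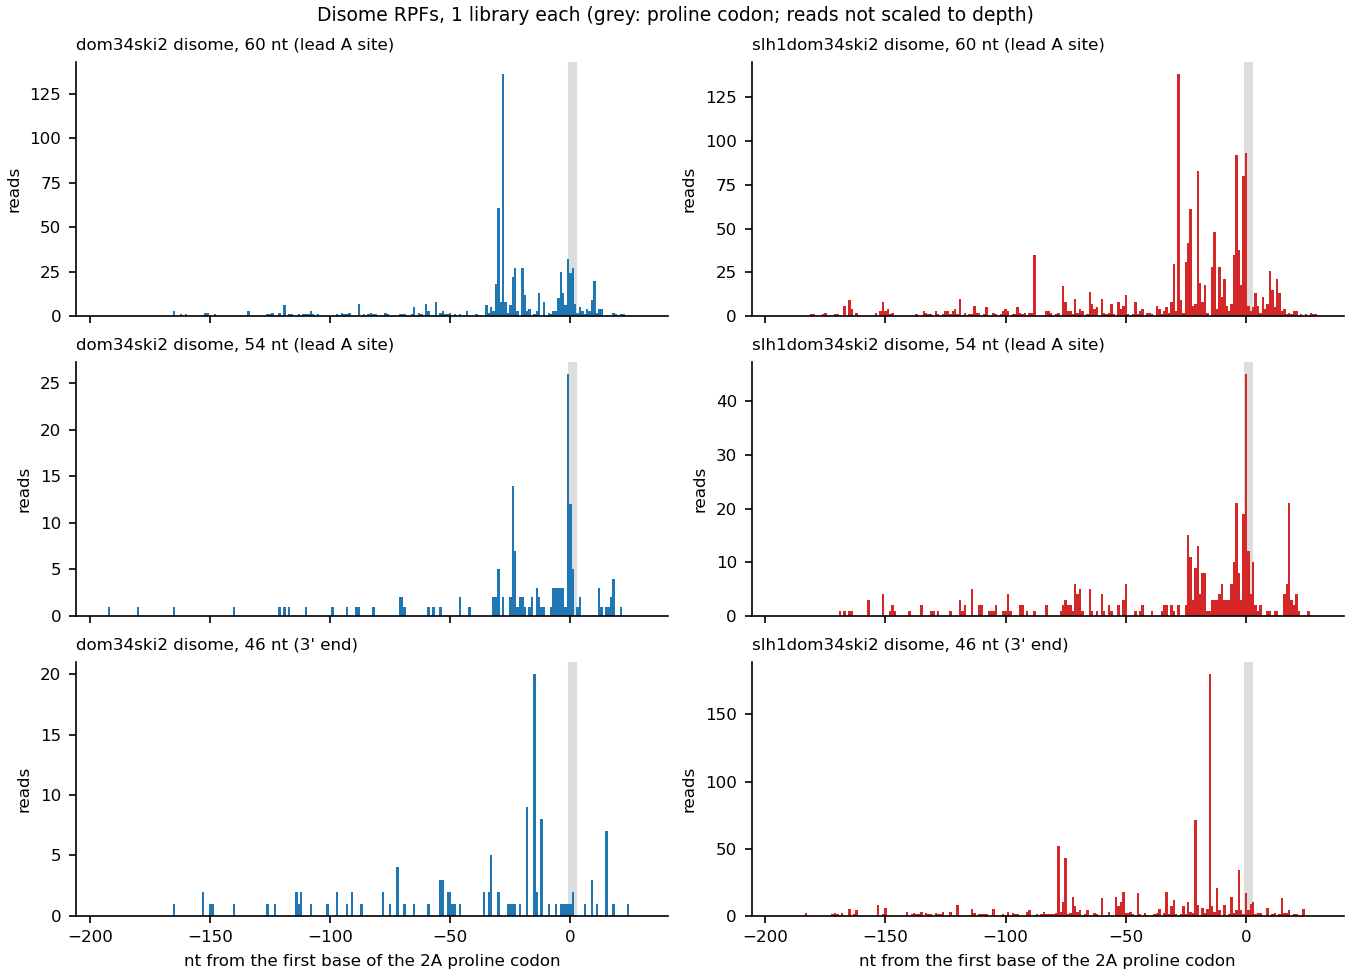
Disome reads (vertical axes, not scaled to depth) by distance from the first nt of the 2A proline codon (nt, horizontal axes) for the 54 and 60 nt classes at the A site of the leading ribosome and the 46 nt class at its 3′ end, in the dom34ski2 and slh1dom34ski2 disome libraries. The 60 nt class peaks 28 nt and the 46 nt class 15 nt before the proline codon in both.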

How the data were processed

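The region and the lists of stretches, positions and tests were chosen with earlier results of these data known. Per the labels and the study's methods, monosomes or disomes were isolated on sucrose gradients after RNase I digestion, and fragments of 15 to 34 nt or 40 to 80 nt were gel purified and sequenced. Base calls were made with CASAVA 1.8 and adapters were trimmed with skewer. Reads that aligned to ribosomal or non-coding RNA were set aside, and the rest were mapped uniquely with STAR to R64 (sacCer3) and the reporter sequence. The authors assigned A sites 16 or 17 nt (monosomes) and 47 nt (disomes) from the 5′ end, and deposited RPM per position. All values of the 49 columns used came out as whole reads within 0.1 reads (100% of values), from which depth was recovered. Left out were 8 columns, 5 of single libraries whose column could not be matched to 1 label and 3 of an in vitro experiment.

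The region was nt 614 to 837 of the reporter. The stretch before the site was nt 614 to 777, and the body of GFP nt 101 to 613. Stretches were summed, and ratios took log2 of rpm per nt plus 0.1 (sums plus 1). Exact sign-flip tests compared stretches within libraries, and stratified exact permutation tests compared strains within backgrounds, both two-sided. Codon windows of 3 nt with a mean of at least 0.5 rpm were fitted on log2(rpm + 0.1), over all strains, with limma 3.58.1 in R 4.3.3 and Benjamini-Hochberg adjustment. The edgeR 4.0.16 quasi-likelihood test on recovered reads was an alternative. Other alternatives changed pseudocounts, baselines, site width, normalization, the filter and the replicate block, or left out libraries. Named windows were the 5 with the greatest size of change among those past the threshold, and named positions the 5 highest per strain or over all strains. The scripts were tested on simulated data. Replicate libraries differed by more than sampling noise in all 19 comparisons (chi-square per degree of freedom 4.76 to 64.5), so none was counted as a duplicate.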

Additional observations from a re-analysis of the deposited data

Results flagged for a closer look

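In 5 comparisons the libraries of one background all moved one way with loss of SLH1 and those of another background all moved the opposite way. With these few libraries the exact permutation test of such a difference cannot go below p = 0.0556, so the differences themselves were not tested to a threshold of 0.05. Over the 15 differences computed, p after Benjamini-Hochberg adjustment was 0.278 or more.

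For the 16 nt RPFs of the region, the change with loss of SLH1 was higher in dom34Δ ski2Δ than in ski2Δ by 3.37 on the log2 scale (exact p = 0.0556), and it was lower in hel2Δ dom34Δ ski2Δ than in dom34Δ ski2Δ, a difference of -2.76 (exact p = 0.0556). For the log2 ratio of 21 nt RPFs at the 2A site to the stretch before it, the difference was -1.26 between dom34Δ ski2Δ and ski2Δ (exact p = 0.111) and 1.35 between hel2Δ dom34Δ ski2Δ and dom34Δ ski2Δ (exact p = 0.0556). For the same ratio of 28 nt RPFs it was -1.34 between dom34Δ ski2Δ and ski2Δ (exact p = 0.111). The ski2Δ values rest on 1 library, and hel2Δ slh1Δ dom34Δ ski2Δ on a pair of which 1 is shallow.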

How the results depend on the processing

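Of 373 alternatives over 20 results, 336 kept direction, side of the threshold and count within 1.5 times, and 37 did not. The 21 nt ratio at the 2A site, its share of 21 nt RPFs and all 3 counts of 0 windows were among the 9 results that none of their alternatives changed. The change of the 21 nt ratio with loss of SLH1 (-0.01) became 0.0194 with a pseudocount of 0.01, 0.22 with the body of GFP as baseline, 0.0761 with the proline codon alone and 0.20 without the shallow libraries, and ran from -0.11 to 0.10 with each library left out. The 28 nt ratio (-0.15) became 0.53 with the body of GFP as baseline (exact p = 0.0103), 0.27 with the region up to nt 770, -2.16 with the proline codon alone, 0.0521 without the shallow libraries, and ran from -0.25 to 0.00156 with each library left out, the last without the shallow cue2Δ slh1Δ dom34Δ ski2Δ library. Its change with loss of SLH1 (-0.62) became 0.0609 with the body of GFP as baseline and -1.46 with the proline codon alone (exact p = 0.0309). Each of these includes the shallow cue2Δ slh1Δ dom34Δ ski2Δ library, which held 5 reads of 28 nt RPFs at the site and 0 at the proline codon. The ratio of after to before (-1.05) became 0.46 to nt 900 and -0.11 over the first 12 nt after the 2A. Its change with loss of SLH1 (0.37) became 0.98 with the body of GFP as baseline (exact p = 0.00309) and 1.17 to nt 900 (exact p = 0.0123). Per reporter reads, the region's 21 and 28 nt RPFs changed by 0.69 and 44 windows passed. The causes were not tested.

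Of 16 nt windows, slh1Δ dom34Δ ski2Δ against dom34Δ ski2Δ gave 27 with only those strains fitted and 2 to 22 with each library left out: 3 and 6 without the first and second dom34Δ ski2Δ library, and 6 and 2 without the first and second slh1Δ dom34Δ ski2Δ library. Against slh1Δ ski2Δ there were 13 to 24, with 13 without the second slh1Δ ski2Δ library. Loss of CUE2 in slh1Δ dom34Δ ski2Δ gave 9 to 17, with 9 without the second slh1Δ dom34Δ ski2Δ library. Loss of HEL2 there gave 19 with only those strains fitted, 20 per reporter reads and 4 to 17 with each library left out: 4 without either slh1Δ dom34Δ ski2Δ library, and 7 and 6 without the first and second hel2Δ slh1Δ dom34Δ ski2Δ library. A strain left with 1 library was assumed to vary like the others. The fit of only the strains compared is the full fit for the 21 and 28 nt windows, and leaving out the shallow libraries touched no loss-of-DOM34 comparison.

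With the set number as a replicate block, the change of the 21 nt ratio with loss of SLH1 was 0.00884, and no other call changed. Deviations within a set gave correlations of -0.32 to 0.48 over 51 pairs, 30 of them at most 0.1, so libraries were not treated as pairs. The sets did differ in where 21 nt A sites fell in the body of GFP. On the first nt of a codon lay 15.6% in the first and 9.59% in the second dom34Δ ski2Δ library. The first set was also higher in the other strains with both libraries, except hel2Δ dom34Δ ski2Δ (20.9% against 26.3%). The cause was not tested. In the shallow libraries 3 reads stand for up to 2.38 rpm.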
